A study of Mus musculus with 14 samples.

Results

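The genes described here are 49 genes of DNA replication and mitosis, 17 of them acting in S phase and 32 in mitosis, taken from a list of gene names. A probe set annotated with the gene's symbol was found for 46 of the 49 genes, 16 of S phase and 30 of mitosis, out of 19505 genes named on the array. Each of the 46 genes had 1 probe set. Ccnb1, Foxm1 and Mcm7 found no named probe set and were not analysed here. RNA was hybridized to 14 Clariom S mouse arrays and came from adult male wild-type C57Bl6 mice kept for 2 weeks on 1 of 2 diets. The groups were total liver on CDAA (4 arrays), total liver on CSAA (4 arrays), primary hepatocytes on CDAA (3 arrays) and primary hepatocytes on CSAA (3 arrays). CDAA, named CDAA-HSHC in the series' title, is a choline-deficient, amino acid-defined diet, here with cholesterol, glucose and fructose added, and CSAA is its control. Total liver was the caudal lobe after the heart had been perfused with saline, and hepatocytes came from a collagenase digest of the liver. Arrays of a group stand for independent preparations, so p-values measure the spread between preparations, taken as 1 spread shared by the 4 groups. Hepatocyte arrays spread more than total liver arrays, so the shared spread on average understates that of hepatocytes. How many mice went into a preparation is not given in the sources used here.

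In a resting cell the genes for DNA replication are held silent by retinoblastoma family proteins on E2F factors, and they are released when G1 kinases act. The genes for mitosis follow later in the cycle. They are repressed in resting cells by the DREAM complex and are activated by B-MYB and FOXM1, largely through a promoter element called the CHR and through CCAAT boxes bound by NF-Y. Adult hepatocytes are mostly quiescent but can re-enter the cycle after injury. The macrophages and other non-parenchymal cells of the liver can divide too, so RNA of these genes in a whole tissue may come from several cell types.

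The promoters of 5 members that recur in the results are shown to let the 2 kinds of element be seen. Mcm6 and Mcm5 stand for S phase, and Ccnb2, Cdk1 and Mki67 for mitosis. They were taken from the members whose window holds the motif of their stage, as those with the smallest p in total liver. Each window runs 5′ to 3′ on the gene's strand, from 250 bases before to 50 bases after the start site (RefSeq, GRCm38.p6). Capitals mark the motifs searched on both strands, namely the E2F motifs TTTGGCGC, TTTCCCGC and TTTCGCGC, the CHR motifs TTTGAA and TTCGAA, and the CCAAT box. E2F matches on opposite strands can overlap, as they do within the longest capital run of Mcm6 and of Mcm5.
Mcm6 (chr1:128359656-128359955, minus strand): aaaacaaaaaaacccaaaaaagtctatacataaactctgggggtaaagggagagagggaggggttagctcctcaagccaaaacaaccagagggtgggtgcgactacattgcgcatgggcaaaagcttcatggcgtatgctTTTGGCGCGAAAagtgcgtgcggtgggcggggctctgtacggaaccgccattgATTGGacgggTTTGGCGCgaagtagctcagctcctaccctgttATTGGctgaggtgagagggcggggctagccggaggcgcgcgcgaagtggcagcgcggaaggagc
Mcm5 (chr8:75109259-75109558, plus strand): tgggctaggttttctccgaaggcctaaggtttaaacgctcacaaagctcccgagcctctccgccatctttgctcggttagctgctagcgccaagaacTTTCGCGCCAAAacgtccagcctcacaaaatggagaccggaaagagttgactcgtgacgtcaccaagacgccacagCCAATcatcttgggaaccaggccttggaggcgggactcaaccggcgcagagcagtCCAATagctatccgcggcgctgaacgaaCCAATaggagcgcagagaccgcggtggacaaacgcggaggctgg
Ccnb2 (chr9:70421505-70421804, minus strand): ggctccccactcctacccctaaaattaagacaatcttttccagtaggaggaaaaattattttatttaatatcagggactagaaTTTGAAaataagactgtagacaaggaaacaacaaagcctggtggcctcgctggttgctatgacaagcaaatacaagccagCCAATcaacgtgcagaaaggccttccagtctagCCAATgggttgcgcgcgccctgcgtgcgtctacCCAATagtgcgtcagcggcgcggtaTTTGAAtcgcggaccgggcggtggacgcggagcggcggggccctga
Cdk1 (chr10:69352863-69353162, minus strand): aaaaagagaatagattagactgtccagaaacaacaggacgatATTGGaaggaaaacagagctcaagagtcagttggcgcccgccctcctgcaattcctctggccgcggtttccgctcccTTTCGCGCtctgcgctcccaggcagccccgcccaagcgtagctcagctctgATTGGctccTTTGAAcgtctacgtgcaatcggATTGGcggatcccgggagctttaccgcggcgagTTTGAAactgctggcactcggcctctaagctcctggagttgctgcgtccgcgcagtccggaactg
Mki67 (chr7:135716330-135716629, minus strand): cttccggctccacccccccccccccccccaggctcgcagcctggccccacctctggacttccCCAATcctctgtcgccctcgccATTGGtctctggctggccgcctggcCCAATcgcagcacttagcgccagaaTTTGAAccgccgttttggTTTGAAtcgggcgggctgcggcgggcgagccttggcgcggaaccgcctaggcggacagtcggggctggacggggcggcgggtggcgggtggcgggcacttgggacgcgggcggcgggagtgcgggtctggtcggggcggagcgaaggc

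An E2F motif was found in 6 of 14 promoter windows of S phase members (42.9%), in 1 of 28 windows of mitosis members (3.57%, that of Cdk1) and in 1.84% of all 32851 windows of the RefSeq table. A CHR motif was found in 1 S phase window (7.14%, that of Mcm2), in 23 mitosis windows (82.1%) and in 19.2% of all windows. The CCAAT box was in 9 S phase windows (64.3%), 24 mitosis windows (85.7%) and 37.4% of all windows. The 2 groups of members thus differed in the motifs their windows held, which is a description of these letters and shows no binding. Of the 33 CHR matches in mitosis windows, 25 lay between 100 bases before and 50 bases after the start site. The windows belong to 39 of the 46 members, of which Ect2, Prc1 and Uhrf1 have 2 each, and no window was at hand for Aurkb, Ccna2, Ccne2, Gins2, Kif20a, Mcm4 and Tpx2.

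**Figure D1:**
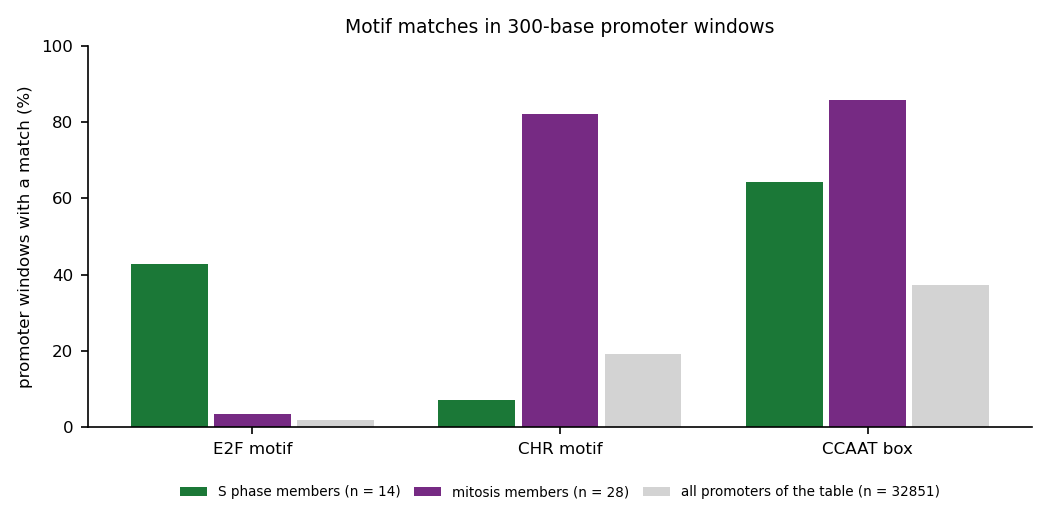
Share of promoter windows (%, vertical axis) that hold an E2F motif, a CHR motif or a CCAAT box, for S phase members (green, 14 windows), mitosis members (purple, 28 windows) and all windows of the RefSeq table (grey, 32851 windows). The CHR bar stands at 82.1% for mitosis members and at 7.14% for S phase members.

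Values are the authors' log2 intensities, and differences are given in log2 units, CDAA minus CSAA. The highest value of an array was 19.2 to 19.9, above the log2 ceiling of a 16-bit scan, so no difference was turned into a fold change. Array medians over all probe sets were 6.07 to 6.24 in total liver and 4.56 to 4.71 in hepatocytes. The tissues therefore look normalized as 2 sets, and levels were not compared between them. The 14 hepatocyte function genes measured, such as Alb and Ttr, exceeded the 95th percentile of intron control probe sets on every array. Deviations from the group means were larger in hepatocyte arrays (root mean square 0.363 to 0.594) than in total liver arrays (0.229 to 0.320), and replicate 1 of the CDAA hepatocytes deviated most. The number of arrays limits the precision.

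In total liver, 32 of the 46 members were higher on CDAA (limma, adjusted p under 0.05 over 22206 probe sets) and 0 were lower. Over all probe sets tested, 6.73% were called higher and 3.54% lower. By stage, 9 of 16 S phase members and 23 of 30 mitosis members were called higher. The median difference was 1.19 over S phase members and 1.47 over mitosis members, beside -0.09 over all probe sets tested and -0.05 over the 5222 intron control probe sets. In 36 members every CDAA liver lay above every CSAA liver and in 0 members below, beside 13.1% of all probe sets above and 12% below. The share of calls that were higher over all probe sets was 65.6%, but 43.4% after centring each array on its median. The members' 30 calls under that centring were all higher too, without Rrm1 and Aurkb. After joint quantile normalization 26 calls remained (6 of S phase and 20 of mitosis), without those of Ccne2, Mcm3, Rrm1, Aurkb, Plk1 and Kif11.

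In primary hepatocytes, 34 of the 46 members were higher on CDAA and 0 were lower (limma, adjusted p under 0.05), beside 11% of all probe sets called higher and 7.74% lower. These were 10 of 16 S phase members and 24 of 30 mitosis members. The median difference was 1.71 over S phase members and 1.77 over mitosis members, beside -0.13 over all probe sets tested and -0.28 over the intron control probe sets. In 36 members every CDAA array lay above every CSAA array and in 0 members below, beside 12.4% of all probe sets above and 14.2% below. With a spread estimated per tissue, 28 hepatocyte calls remained (8 of S phase and 20 of mitosis), without those of E2f1, Rrm2, Aurka, Kif23, Prc1 and Melk. With the 2 hepatocyte groups alone 24 remained (7 of S phase and 17 of mitosis), without those of E2f1, Mcm2, Gins2, Mki67, Top2a, Aurka, Kif23, Prc1, Hmmr and Melk. The share of higher calls over all probe sets was 58.7%. It was 39.8% after centring on array medians, 43.5% after joint quantile normalization and 83.7% after centring on intron control medians, and under each of these 0 members were called lower.

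**Figure D2:**
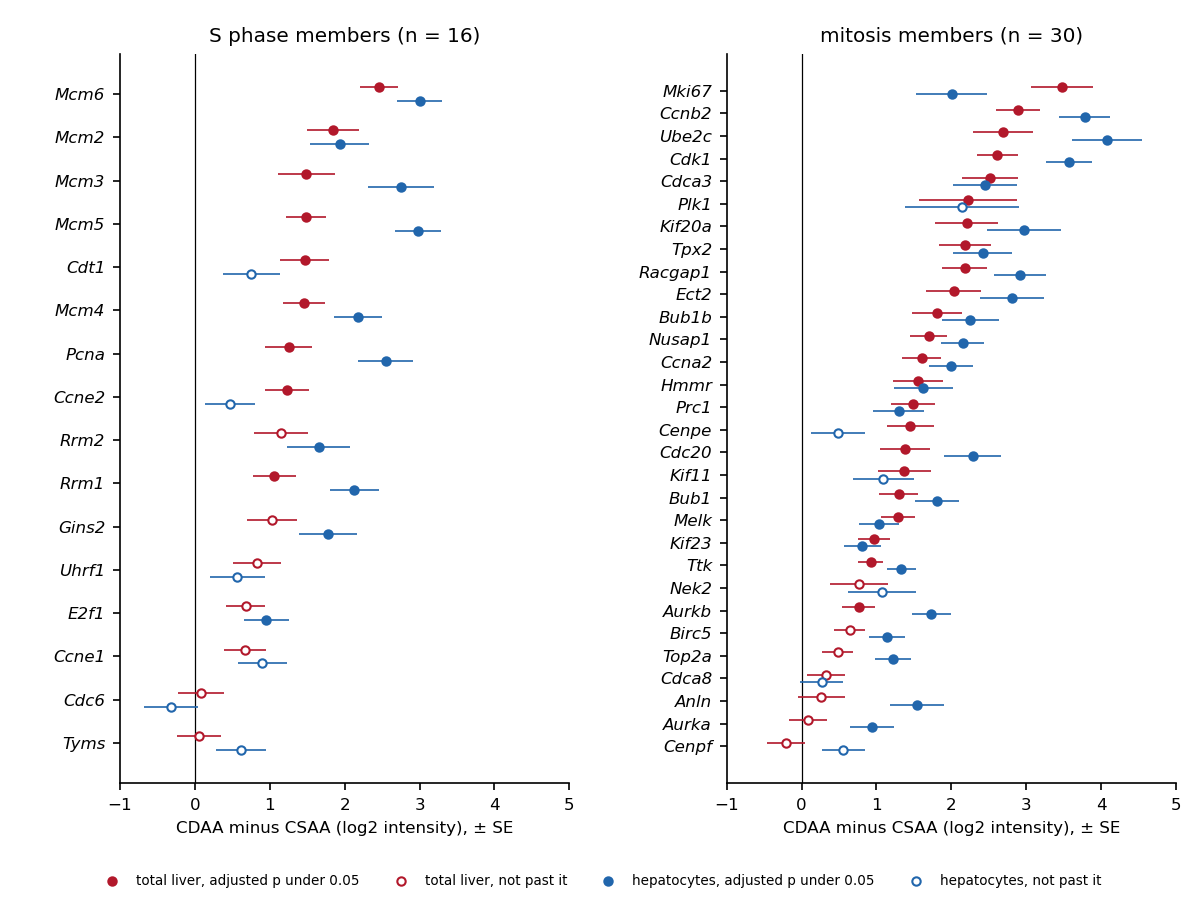
Difference CDAA minus CSAA (log2 intensity, horizontal axis, ± SE) of the 16 S phase members (left) and 30 mitosis members (right) in total liver (red) and hepatocytes (blue). Filled points passed the adjusted p threshold of 0.05, and nearly all points lie right of 0, with Cenpf in total liver (-0.21) and Cdc6 in hepatocytes (-0.32) as the exceptions.

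The G1/S genes had the lowest medians of the 3 S phase roles, 0.68 in total liver and 0.90 in hepatocytes. Of Ccne1 and Ccne2, the cyclins that bind CDK2 at S phase entry, and E2f1, a transcription factor of replication genes, 1 passed in each tissue. Ccne2 rose by 1.23 ± 0.29 in total liver (limma, adjusted p = 0.0121, or 0.0665 after joint quantile normalization) and differed by 0.47 ± 0.34 in hepatocytes (adjusted p = 0.375). E2f1 differed by 0.68 ± 0.26 in total liver (adjusted p = 0.117) and rose by 0.96 ± 0.30 in hepatocytes (adjusted p = 0.0343). The E2f1 call did not hold with a spread per tissue. Ccne1 differed by 0.67 ± 0.28 in total liver and by 0.90 ± 0.32 in hepatocytes, past the threshold in neither.

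Of 8 genes that license origins or unwind DNA, 6 rose in each tissue, and the 5 measured subunits of the MCM helicase ring were among them both times. Mcm6, one of these subunits, had 9.62, 9.59, 9.57 and 9.87 in CDAA livers, against 7.39, 7.01, 7.07 and 7.32 in CSAA livers. In hepatocytes Mcm6 had 7.04, 7.45 and 7.09 on CDAA, against 4.94, 4.24 and 3.39 on CSAA. The groups were far apart in both tissues. Mcm6 rose by 2.46 ± 0.26 in total liver (limma, adjusted p = 1.55e-05) and by 3.00 ± 0.30 in hepatocytes (adjusted p = 2.54e-06), the largest S phase difference in both tissues.

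Mcm5, another subunit, had 6.59, 6.12, 6.55 and 6.21 in CDAA livers, against 5.17, 4.68, 4.78 and 4.91 in CSAA livers. In hepatocytes it had 5.55, 6.83 and 5.40 on CDAA, against 3.14, 2.81 and 2.90 on CSAA. Neither pair of groups overlapped. Its rise was 1.48 ± 0.27 in total liver (limma, adjusted p = 0.00173) and 2.98 ± 0.31 in hepatocytes (adjusted p = 3.81e-06). Mcm2, Mcm3 and Mcm4 rose by 1.46 to 1.85 in total liver and by 1.93 to 2.76 in hepatocytes. Gins2, a part of the GINS complex that joins the helicase, differed by 1.03 ± 0.33 in total liver (adjusted p = 0.0655) and rose by 1.77 ± 0.39 in hepatocytes (adjusted p = 0.0038).

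Cdt1 and Cdc6 load the helicase onto origins. Cdt1 rose by 1.47 ± 0.33 in total liver (limma, adjusted p = 0.00802) and differed by 0.76 ± 0.38 in hepatocytes (adjusted p = 0.189). Cdc6 had 5.50, 4.55, 6.03 and 4.94 in CDAA livers, against 4.98, 5.22, 5.32 and 5.16 in CSAA livers. In hepatocytes Cdc6 had 3.90, 4.92 and 3.80 on CDAA, against 4.24, 4.47 and 4.87 on CSAA. Its groups overlapped in both tissues, with differences of 0.09 ± 0.31 in total liver and -0.32 ± 0.36 in hepatocytes. The sign in total liver turned after centring on array medians (-0.05) and without replicate 3 of the CDAA livers (-0.17).

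Among the replication clamp, the nucleotide enzymes and Uhrf1, which keeps up DNA methylation at the fork, 2 of 5 rose in total liver and 3 of 5 in hepatocytes. Pcna, the sliding clamp of the polymerases, had 13.77, 13.93, 13.65 and 13.99 in CDAA livers, against 12.56, 12.63, 12.62 and 12.53 in CSAA livers. In hepatocytes Pcna had 13.22, 14.89 and 15.20 on CDAA, against 11.73, 11.78 and 12.16 on CSAA. The groups did not overlap, and replicate 1 of the CDAA hepatocytes was the lowest of its group. Pcna rose by 1.25 ± 0.32 in total liver (limma, adjusted p = 0.0182, or 0.055 without replicate 4 of the CDAA livers) and by 2.55 ± 0.37 in hepatocytes (adjusted p = 9.94e-05).

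Rrm1 and Rrm2 encode the subunits of ribonucleotide reductase, which makes deoxyribonucleotides. Rrm1 rose by 1.06 ± 0.29 in total liver (limma, adjusted p = 0.0275) and by 2.13 ± 0.33 in hepatocytes (adjusted p = 0.000221). Rrm2 had 7.42, 9.61, 8.99 and 9.11 in CDAA livers, against 7.52, 7.38, 7.89 and 7.75 in CSAA livers. Replicate 1 of the CDAA livers lay among the controls and the other 3 lay above them all. The difference was 1.15 ± 0.36 (adjusted p = 0.057), and without that array it was 1.60 (adjusted p = 0.000982). Rrm2 rose by 1.65 ± 0.42 in hepatocytes (adjusted p = 0.0105). Tyms, thymidylate synthase, had 9.67, 9.56, 9.89 and 9.55 in CDAA livers, against 9.70, 9.72, 9.44 and 9.59 in CSAA livers. These values overlapped throughout, and the difference of 0.05 ± 0.29 took the other sign under 4 of the alternatives. In hepatocytes Tyms differed by 0.62 ± 0.34 (adjusted p = 0.236). It was 0.95 without replicate 1 of the CDAA hepatocytes (adjusted p = 0.0416), but 0.21 without replicate 2 of the CDAA hepatocytes and 0.26 without replicate 2 of the CSAA hepatocytes (adjusted p = 0.726 and 0.684). Uhrf1 differed by 0.83 ± 0.32 in total liver and by 0.56 ± 0.37 in hepatocytes, past the threshold in neither. Pcna and Tyms have pseudogene copies in the mouse, and whether their probe sets tell these apart was not checked.

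**Figure D3:**
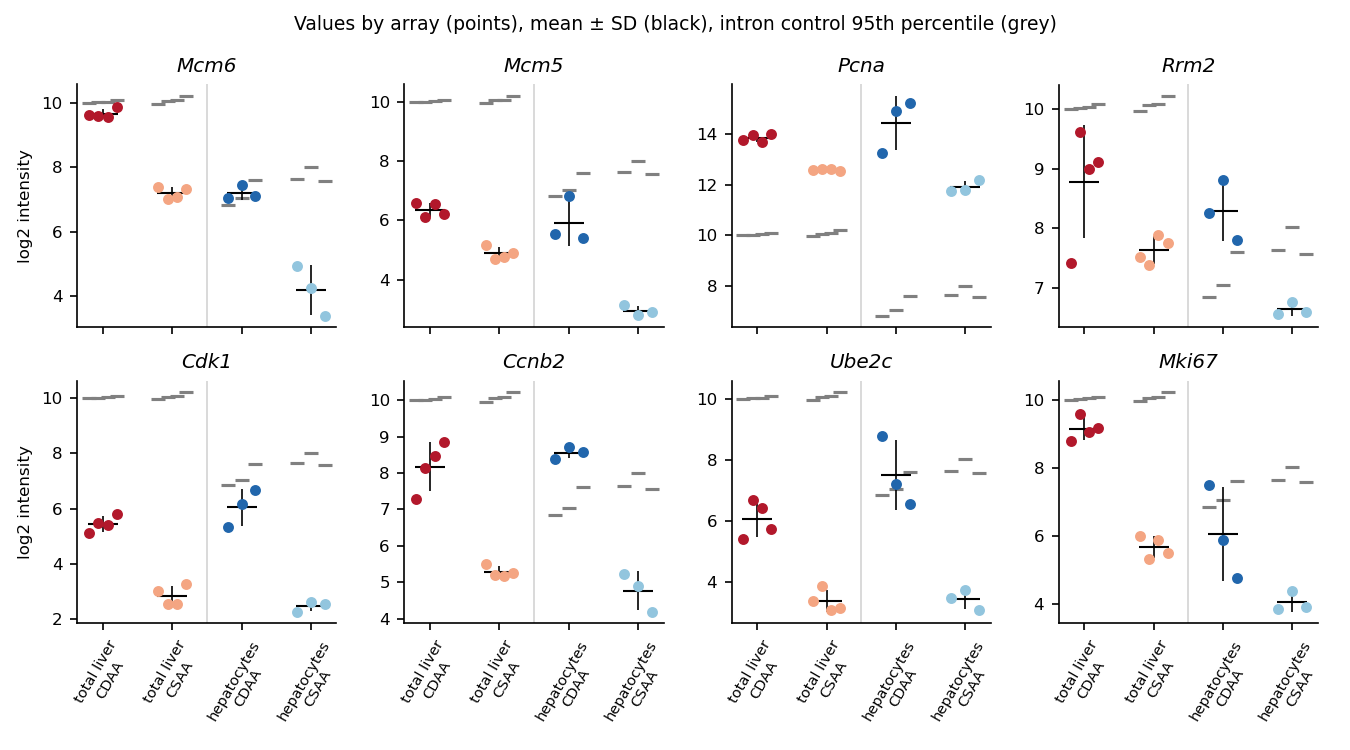
Log2 intensity (vertical axis) of 8 members on each of the 14 arrays, with group means ± SD in black and, in grey, each array's 95th percentile of intron controls. In Mcm6, Mcm5, Pcna, Cdk1, Ccnb2, Ube2c and Mki67 every CDAA point lies above every CSAA point of its tissue, while 1 CDAA liver of Rrm2 lies among the controls.

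All 3 measured G2/M drivers rose in both tissues. Cdk1, the kinase that starts mitosis, had 5.12, 5.47, 5.40 and 5.82 in CDAA livers, against 3.01, 2.54, 2.54 and 3.26 in CSAA livers. In hepatocytes Cdk1 had 5.33, 6.16 and 6.67 on CDAA, against 2.25, 2.63 and 2.56 on CSAA. The 2 diets were separated by far more than the spread within them. Cdk1 rose by 2.62 ± 0.27 in total liver (limma, adjusted p = 1.39e-05) and by 3.57 ± 0.31 in hepatocytes (adjusted p = 6.35e-07). Among the intron control probe sets its mean percentile was 36.9 in CDAA livers and 2.8 in CSAA livers. It was 88.6 in CDAA hepatocytes and 8.2 in CSAA hepatocytes, so the true size of either rise is not known.

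Ccnb2, a B-type cyclin that activates CDK1, had 7.28, 8.14, 8.46 and 8.85 in CDAA livers, against 5.51, 5.20, 5.17 and 5.27 in CSAA livers. In hepatocytes it had 8.39, 8.70 and 8.57 on CDAA, against 5.24, 4.91 and 4.18 on CSAA. All CDAA values were above all CSAA values of their tissue. The rise was 2.89 ± 0.29 in total liver (limma, adjusted p = 1.2e-05) and 3.78 ± 0.34 in hepatocytes (adjusted p = 8.32e-07). Ccna2, the cyclin of late S phase and G2, rose by 1.60 ± 0.25 in total liver and 2.00 ± 0.29 in hepatocytes.

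Of 10 mitotic kinases and checkpoint genes, 6 rose in total liver and 7 in hepatocytes. The spindle checkpoint genes Bub1, Bub1b and Ttk rose in both tissues, by 0.92 to 1.80 in total liver and by 1.33 to 2.25 in hepatocytes. Melk, a kinase of dividing cells, rose by 1.29 ± 0.23 in total liver and 1.04 ± 0.27 in hepatocytes. Plk1, a kinase that acts through mitosis, had 7.02, 7.75, 7.29 and 6.71 in CDAA livers, against 4.82, 4.68, 5.34 and 5.01 in CSAA livers. The livers were clearly apart. In hepatocytes Plk1 had 9.71, 6.56 and 4.99 on CDAA, against 5.05, 5.03 and 4.77 on CSAA. Its CDAA hepatocytes ran from among the controls to far above them. Plk1 rose by 2.23 ± 0.66 in total liver (limma, adjusted p = 0.0418) and differed by 2.14 ± 0.76 in hepatocytes (adjusted p = 0.0618). The total liver call did not hold when any 1 of the 8 livers was left out (adjusted p = 0.0642 to 0.11), while the hepatocyte difference was 3.19 without replicate 3 on CDAA (adjusted p = 0.00159) and 0.83 without replicate 1 on CDAA (adjusted p = 0.131).

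The chromosomal passenger complex, which corrects faulty spindle attachments, was uneven. Aurkb, its kinase, rose by 0.76 ± 0.23 in total liver (limma, adjusted p = 0.044) and by 1.73 ± 0.26 in hepatocytes (adjusted p = 0.00017). Birc5, survivin, differed by 0.64 ± 0.20 in total liver (adjusted p = 0.0586) and rose by 1.14 ± 0.24 in hepatocytes (adjusted p = 0.00257). Cdca8, borealin, differed by 0.32 ± 0.25 in total liver and 0.27 ± 0.29 in hepatocytes, past the threshold in neither. Aurka, the kinase of spindle poles, differed by 0.08 ± 0.25 in total liver, where the sign turned under 3 alternatives, and rose by 0.94 ± 0.29 in hepatocytes (adjusted p = 0.0353). That rise did not hold with a spread per tissue or without any of 5 of the 6 hepatocyte arrays in turn (adjusted p = 0.0635 to 0.109). Nek2, a centrosome kinase, differed by 0.76 ± 0.39 in total liver and 1.07 ± 0.45 in hepatocytes and passed in neither.

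Of 8 genes of the spindle, the kinetochore and mitotic chromosomes, 6 rose in total liver and 5 in hepatocytes. Mki67, which encodes the Ki-67 protein that coats mitotic chromosomes, had 8.77, 9.59, 9.05 and 9.15 in CDAA livers, against 6.01, 5.31, 5.87 and 5.49 in CSAA livers. In hepatocytes Mki67 had 7.50, 5.89 and 4.77 on CDAA, against 3.85, 4.38 and 3.92 on CSAA. The groups did not overlap, and the CDAA hepatocytes were widely spread. Mki67 rose by 3.47 ± 0.41 in total liver (limma, adjusted p = 5.18e-05), the largest difference of any member there, and by 2.00 ± 0.48 in hepatocytes (adjusted p = 0.00725). The hepatocyte rise was 1.28 without replicate 1 on CDAA (adjusted p = 0.00903) and did not pass with the 2 hepatocyte groups alone (adjusted p = 0.108).

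Nusap1, which bundles spindle microtubules, and Tpx2, which activates AURKA on the spindle, rose by 1.70 ± 0.25 and 2.18 ± 0.34 in total liver and by 2.15 ± 0.29 and 2.42 ± 0.40 in hepatocytes. Hmmr, a spindle-associated receptor of hyaluronan, rose by 1.56 ± 0.34 in total liver and 1.63 ± 0.39 in hepatocytes. The motor genes Cenpe and Kif11 rose in total liver by 1.45 ± 0.31 and 1.37 ± 0.35, and differed by 0.49 ± 0.36 and 1.09 ± 0.41 in hepatocytes without passing. Top2a, the topoisomerase that untangles sister chromosomes, had 6.64, 6.78, 6.23 and 6.55 in CDAA livers, against 6.04, 5.99, 6.20 and 6.04 in CSAA livers. Its groups lay close together without overlapping. Top2a differed by 0.48 ± 0.21 in total liver (limma, adjusted p = 0.173) and rose by 1.22 ± 0.24 in hepatocytes (adjusted p = 0.00176). Cenpf, a kinetochore protein, was the only member with a negative difference in total liver, at -0.21 ± 0.25 (adjusted p = 0.66), or 0.03 without replicate 3 of the CSAA livers. It differed by 0.56 ± 0.29 in hepatocytes.

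Cytokinesis genes rose in 5 of 6 cases in total liver and in 6 of 6 in hepatocytes. Racgap1, part of the centralspindlin complex of the cleavage plane, had 5.83, 6.66, 6.25 and 6.80 in CDAA livers, against 4.11, 4.86, 4.22 and 3.62 in CSAA livers. In hepatocytes Racgap1 had 6.64, 6.61 and 5.49 on CDAA, against 3.30, 3.39 and 3.31 on CSAA. The diets did not overlap in either tissue. Racgap1 rose by 2.18 ± 0.30 in total liver (limma, adjusted p = 0.000212) and by 2.91 ± 0.35 in hepatocytes (adjusted p = 1.67e-05). Kif23, its partner, rose by 0.97 ± 0.21 in total liver and 0.81 ± 0.25 in hepatocytes. Ect2, the exchange factor that RACGAP1 recruits, rose by 2.03 ± 0.37 in total liver and 2.81 ± 0.43 in hepatocytes. Kif20a, a motor of the midzone, rose by 2.21 ± 0.42 in total liver and 2.97 ± 0.49 in hepatocytes. Prc1, which crosslinks midzone microtubules, rose by 1.49 ± 0.29 in total liver and 1.29 ± 0.34 in hepatocytes. Anln, anillin of the contractile ring, differed by 0.27 ± 0.31 in total liver (adjusted p = 0.653) and rose by 1.54 ± 0.36 in hepatocytes (adjusted p = 0.00614).

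Ube2c and Cdc20, which act with the anaphase-promoting complex, and Cdca3 rose in both tissues. Ube2c, the ubiquitin-conjugating enzyme of that complex, had 5.40, 6.67, 6.42 and 5.72 in CDAA livers, against 3.36, 3.87, 3.07 and 3.15 in CSAA livers. In hepatocytes Ube2c had 8.79, 7.19 and 6.54 on CDAA, against 3.46, 3.74 and 3.08 on CSAA. Every CDAA array was well above every CSAA array. Ube2c rose by 2.69 ± 0.40 in total liver (limma, adjusted p = 0.000392) and by 4.08 ± 0.47 in hepatocytes (adjusted p = 9.81e-06), the largest difference of any member in hepatocytes. Cdc20, an activator of the complex, rose by 1.38 ± 0.33 in total liver and 2.29 ± 0.38 in hepatocytes. Cdca3, which triggers entry into mitosis, rose by 2.52 ± 0.37 in total liver and 2.45 ± 0.43 in hepatocytes.

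Some calls changed when 1 array was left out. In total liver, the calls of Mcm3, Rrm1, Aurkb and Kif11 each failed in more than 1 of these fits. Their adjusted p ran up to 0.0719 for Mcm3, 0.0868 for Rrm1, 0.124 for Aurkb and 0.0724 for Kif11 (limma). Gins2 and Birc5 passed without replicate 1 of the CSAA livers, at adjusted p = 0.0363 and 0.0357. In hepatocytes, the calls of E2f1 and Kif23 failed without 1 of several arrays (adjusted p up to 0.0883 and 0.1). The calls of Prc1 and Melk failed without replicate 1 on CSAA (adjusted p = 0.0683 and 0.062), and that of Rrm2 without replicate 2 on CDAA (0.0591). Cdt1 and Nek2 passed without replicate 3 on CDAA (adjusted p = 0.0239 and 0.0156), but without replicate 1 on CDAA they were at 0.30 and 0.38 (adjusted p = 0.568 and 0.419). Ccne1 passed without replicate 1 on CDAA (0.0157) or replicate 3 on CSAA (0.0203), with 0.54 (adjusted p = 0.267) without replicate 1 on CSAA. Kif11 passed without replicate 2 on CSAA (0.0394).

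Most members were dim. Intron control probe sets, which should bind little mature mRNA, served as background. A member counted as not above background in a group if none of the group's arrays exceeded the 95th percentile of these probe sets. By that rule 45 of 46 members were not above background in CDAA livers and 45 in CSAA livers, Pcna being the exception. The same was so for 27 members in CDAA hepatocytes and 44 in CSAA hepatocytes. Of all probe sets tested, it was so for 63.2% to 77.4% in the 4 groups. The percentile itself was 6.84, 7.04 and 7.61 in CDAA hepatocytes, against 7.64, 8.01 and 7.57 in CSAA hepatocytes. The counts of the 2 diets therefore do not rest on the same cut. Nor do those of the 2 tissues, since the percentile was 9.96 to 10.23 in total liver. On every total liver array the intron median (5.97 to 6.21) exceeded the median of the tested probe sets (5.85 to 6.06). On every hepatocyte array the intron median (3.71 to 4.21) lay below that of the tested probe sets (4.68 to 4.89). Differences of members not above background are given as fitted, and their true size is not known. The median percentile of mitosis members among the intron probe sets was 46.2 to 59.1 in CDAA livers and 21.6 to 30.4 in CSAA livers. All 3 CDAA hepatocyte arrays were above background for Pcna, Rrm1, Rrm2, Tyms and Ccnb2. Against the background of the CSAA arrays, the hepatocyte rise was at least 0.82 for Ccnb2, 0.60 for Rrm1 and 0.55 for Rrm2 in log2 units, where the fitted values were 3.78, 2.13 and 1.65. For Ect2, above background on 2 of 3 CDAA arrays, it was at least 0.34.

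The background probe sets were also set beside the members as differences. In total liver 30 of 46 members exceeded 1.03, the 95th percentile of differences among intron probe sets, 10 of S phase and 20 of mitosis. In hepatocytes 37 members exceeded the corresponding 0.86, 11 of S phase and 26 of mitosis. Fewer exceeded the 99th percentile of these differences, 1.90 in total liver and 1.72 in hepatocytes. These were 1 of S phase and 10 of mitosis in total liver, and 8 of S phase and 16 of mitosis in hepatocytes. Intron probe sets were called higher in 1.93% of cases in total liver and 0.881% in hepatocytes, and lower in 0.594% and 6.74%. Intron medians were lower in CDAA hepatocytes, at 3.71 to 4.02, than in CSAA hepatocytes, at 4.07 to 4.21. They overlapped between the diets in total liver.

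**Figure D4:**
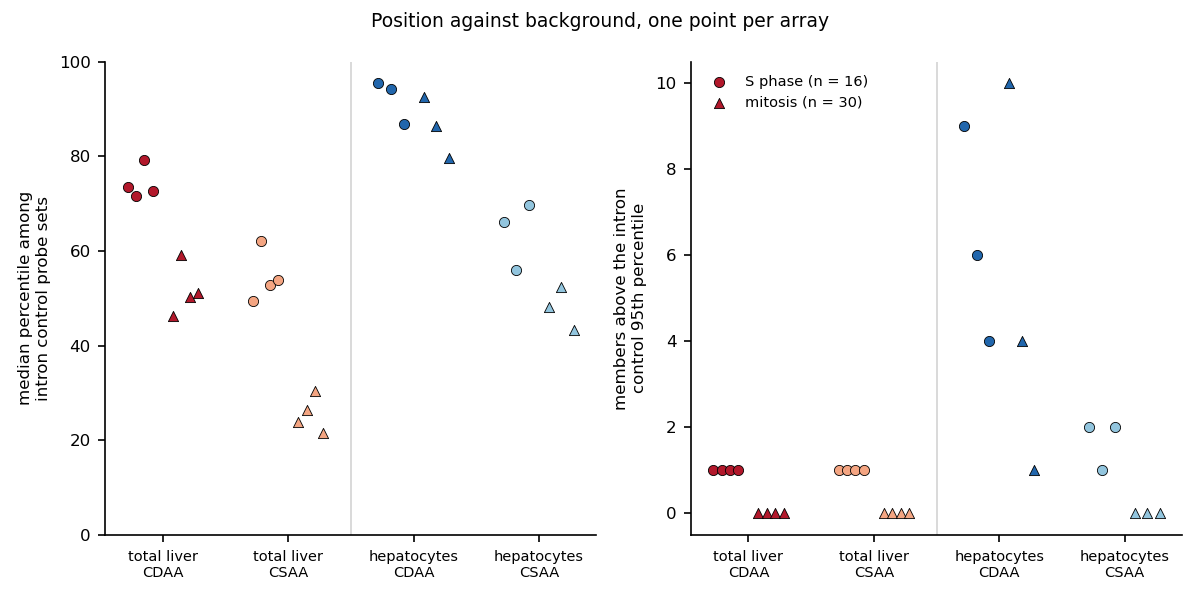
Left, the median percentile of S phase members (circles) and mitosis members (triangles) among that array's intron control probe sets. Right, the number of members above the 95th percentile of these probe sets, 1 point per array in both panels. That percentile was lower in replicates 1 and 2 of the CDAA hepatocytes (6.84 and 7.04) than in CSAA hepatocytes (7.57 to 8.01). It was 9.96 to 10.23 in total liver. In CDAA hepatocytes 4 to 9 S phase and 1 to 10 mitosis members passed that percentile, against 1 to 2 and 0 in CSAA hepatocytes, and in every total liver array 1 S phase and 0 mitosis members did.

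The member means of both stages shifted on every CDAA array. The mean over the 16 S phase members stood 0.92, 1.03, 1.45 and 1.16 above the CSAA mean in CDAA livers, with -0.07 to 0.06 in the single CSAA livers. The mean over the 30 mitosis members stood 1.21, 1.77, 1.49 and 1.52 above it in CDAA livers, with -0.11 to 0.08 in CSAA livers. The mitosis shift was the larger of the 2 in each of the 4 CDAA livers, least so in replicate 3. In CDAA hepatocytes the S phase shift was 1.45, 1.95 and 1.27, with -0.16 to 0.14 in CSAA hepatocytes. The mitosis shift was 2.36, 1.73 and 1.49 in CDAA hepatocytes, with -0.10 to 0.11 in CSAA hepatocytes. Here the order of the stages differed between arrays, since S phase led in replicate 2 and mitosis in replicates 1 and 3. Probe sets respond differently to the same change, so sizes were not tested between the stages. Without replicate 1 of the CDAA hepatocytes the hepatocyte medians were 1.59 for S phase and 1.44 for mitosis.

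Members with and without a motif were set side by side within a stage. The 21 mitosis members with a CHR motif had a median difference of 1.49 in total liver and 1.81 in hepatocytes, and the 5 without had 1.29 in total liver and 1.07 in hepatocytes. The 6 S phase members with an E2F motif had medians of 1.48 in total liver and 1.76 in hepatocytes, and the 7 without had 1.06 in total liver and 1.65 in hepatocytes. The ranges overlapped in each case, and no test was made. Cdc6 holds an E2F motif and had the lowest hepatocyte difference of all members, while Pcna and Rrm1 hold no E2F match and rose.

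The diet effect in total liver was smaller than in hepatocytes in 33 of 46 members and larger in 13. Over all probe sets tested it was larger in 11441 of 22206. In both liver groups 45 members were not above background, so the true sizes of these effects are not known. As a difference of the 2 effects, 0 members passed limma's adjusted threshold in either direction, beside 0.212% of all probe sets with the higher and 2.36% with the lower effect in total liver. At an unadjusted p under 0.05 there were 11 such members of 46, beside 11.8% of all probe sets. The smallest p was that of Mcm5, at -1.49 ± 0.41 for total liver minus hepatocytes (limma, adjusted p = 0.0771). Mki67 was the one member of the 11 with the larger effect in total liver, at 1.47 ± 0.63 (adjusted p = 0.357). The median of this difference was -0.53 over S phase members and -0.45 over mitosis members. It was 0.02 over all probe sets and 0.28 over the intron control probe sets.

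The absence of calls depended on the arrays and the scaling used. Without replicate 1 of the CDAA hepatocytes, Mcm5 (-1.68), Pcna (-1.90), Cdk1 (-1.32), Aurkb (-1.24) and Anln (-1.67) passed with the smaller effect in total liver, and Mki67 (2.19) with the larger. Mcm5 also passed without replicate 3 of the CDAA hepatocytes (-1.76), after joint quantile normalization (-2.13) and after centring on intron control medians (-1.81), where Aurkb passed as well (-1.29). Of the members called, 27 were called in both tissues, 84.4% of those of total liver and 79.4% of those of hepatocytes, where the 2 counts alone require at least 20. Over all probe sets the higher calls in both tissues were 77.5% of those of total liver and 47.5% of those of hepatocytes. Of the 46 members, 7 were called in neither. Across the 46 members the 2 effects correlated at Pearson's r = 0.761, beside 0.777 over all probe sets tested, a description over genes that share arrays.

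Other cell cycle genes were counted from further lists. For these and the lists below, the shares called over all probe sets tested serve as comparison. They were 6.73% higher and 3.54% lower in total liver, and 11% higher and 7.74% lower in hepatocytes. Of 28 other replication genes, 3 rose and 1 fell in total liver, and 9 rose and 0 fell in hepatocytes (limma). Those called in total liver were Fen1, which trims Okazaki fragments (1.08), Chaf1b of chromatin assembly (1.41), Dtl, an adaptor that marks CDT1 for degradation (1.18), and Mcm10 (-2.57). Mcm10 had 10.05, 10.24, 12.77 and 12.27 in CDAA livers, against 14.05, 13.30, 14.08 and 14.18 in CSAA livers. The CDAA livers lay below all CSAA livers, and in hepatocytes Mcm10 differed by -1.70 ± 0.76. Its mean of 13.90 in CSAA livers was above that of Pcna (12.58), the brightest member there. Whether this probe set is specific to Mcm10 was not checked. In total liver the calls of Mcm10, Chaf1b and Dtl each failed in more than 1 of the fits that left out 1 array. Their adjusted p ran up to 0.0782 for Mcm10, 0.0596 for Chaf1b and 0.0782 for Dtl (limma). Over the 28 other replication genes the median difference was 0.285 in total liver and 0.585 in hepatocytes. Over the S phase members it was 1.19 and 1.71. The mean of the 28 genes stood only 0.025, 0.068, 0.541 and 0.323 above the CSAA mean in CDAA livers. In CDAA hepatocytes it stood 0.39, 0.87 and 0.69 above. Of 36 other mitosis genes, 17 rose in total liver and 23 in hepatocytes, with 0 lower in either. The median difference of these 36 was 0.75 in total liver and 1.12 in hepatocytes, beside 1.47 and 1.77 over mitosis members. In total liver Ckap2, a spindle protein, rose by 2.68, the mitotic kinase gene Pbk by 2.55, the checkpoint gene Mad2l1 by 1.75 and the kinetochore gene Knstrn by 1.87. In hepatocytes these genes rose by 2.61, 3.32, 2.84 and 2.06, in the same order. Fen1, Chaf1b, Dtl, Ckap2, Pbk, Mad2l1 and Knstrn were not above background in either liver group. In CSAA hepatocytes the same was so for all of them but Mad2l1. The true size of their rises in total liver is therefore not known.

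Of 7 G1 cyclins and kinases, 3 rose in total liver, namely Cdc25a, Cdk6 and Cdk4, and 2 in hepatocytes. Cdc25a was not above background in either liver group. The call of Cdk4 in total liver failed without any 1 of the 8 livers (adjusted p = 0.0588 to 0.131). Of 18 inhibitors and repressors of the cycle, 5 rose and 1 fell in each tissue. Cdkn1a, the CDK inhibitor p21, had 12.48, 12.95, 10.71 and 11.72 in CDAA livers, against 7.92, 6.32, 7.95 and 6.11 in CSAA livers. In hepatocytes Cdkn1a had 13.14, 11.06 and 10.70 on CDAA, against 8.02, 5.86 and 4.12 on CSAA. An inhibitor of the cycle was thus higher on CDAA in the same arrays as the members, with no overlap between diets. Its rise was 4.89 ± 0.76 in total liver (limma, adjusted p = 0.000553) and 5.64 ± 0.88 in hepatocytes. Cdkn1a was not above background in CSAA livers, and against that background its rise in total liver was at least 1.88. Rbl2, the retinoblastoma family protein p130 of the DREAM complex, fell by 0.89 in total liver and by 1.09 in hepatocytes. Of 4 histone genes measured, 1 rose in total liver and 4 in hepatocytes.

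Markers of other cell types moved in the same arrays. The 16 macrophage markers measured stood on average 3.66, 3.15, 3.02 and 3.19 above the CSAA mean in CDAA livers, with -0.38 to 0.31 in CSAA livers. In hepatocytes they stood 6.55, 8.13 and 7.90 above it on CDAA, with -0.19 to 0.25 on CSAA. Of these 16 markers, 14 to 15 were above background in CDAA hepatocyte arrays and 0 in CSAA hepatocyte arrays. They were above it for 10 to 13 markers in CDAA livers and for 5 to 7 in CSAA livers. By test, 13 rose in total liver and 16 in hepatocytes (limma, adjusted p under 0.05). Macrophage marker signal above background was thus present in every CDAA hepatocyte array.

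The endothelial markers rose for 1 of 10 genes in total liver and 9 of 10 in hepatocytes, and the stellate and fibroblast markers for 6 of 10 and 10 of 10. The mean shift in CDAA hepatocytes was 3.08 to 4.28 for endothelial and 3.74 to 4.70 for stellate markers. Of 12 other leukocyte markers, 4 rose and 1 fell in total liver, and 5 rose and 0 fell in hepatocytes. Of 5 cholangiocyte markers 0 passed in either tissue, with 0 at an unadjusted p under 0.05 in total liver and 1 in hepatocytes. The erythroid markers had 1 of 2 lower in each tissue. Hepatocyte markers fell in 1 of 14 cases in total liver and 5 of 14 in hepatocytes, with a mean shift of -0.47 to -1.18 in CDAA hepatocytes. The part of any of these cell types in the rise of the replication and mitosis genes was not tested. In such bulk samples fewer cells of a type and less RNA per cell cannot be told apart.

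**Figure D5:**
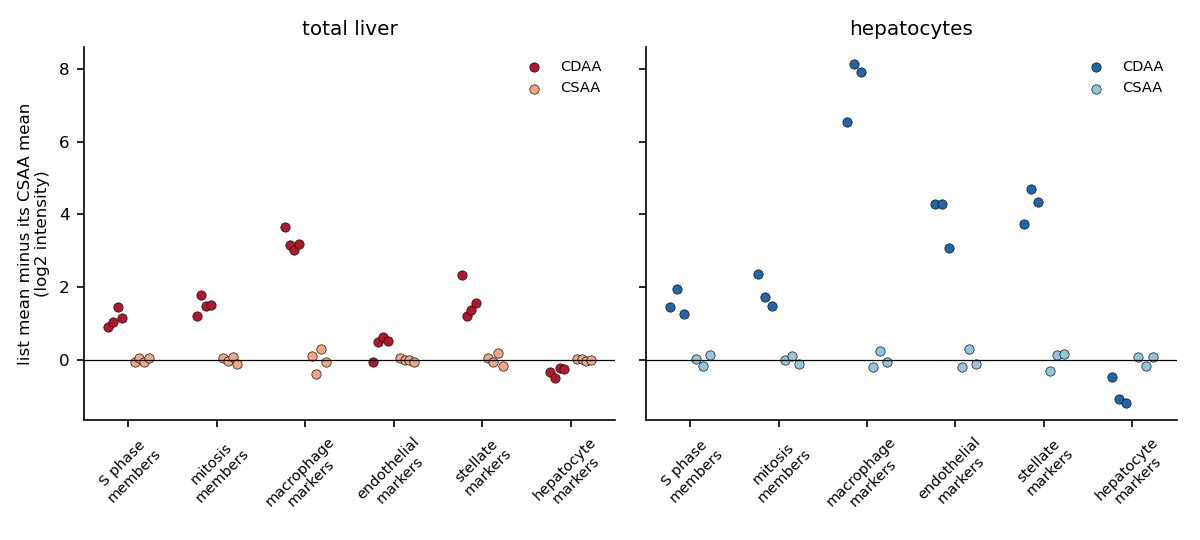
Mean of each list on each array minus its mean over the CSAA arrays of the tissue (log2 intensity, vertical axis), for S phase members, mitosis members and 4 marker lists in total liver (left) and hepatocytes (right), CDAA dark and CSAA light. The CDAA points of both member lists lie above all CSAA points, and those of the macrophage markers lie higher still.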

How the data were processed

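RNA of total liver and primary hepatocytes was labelled and hybridized to Clariom S mouse arrays, 1 per preparation. The deposited table holds log2 intensities from RMA, run by the authors per the submitters' processing notes, with no version stated. The table has 28846 probe sets. The 22206 that are not among the 6640 controls were tested, without a filter. Symbols came from the platform annotation (19572 probe sets with 1 symbol, 2634 with none, 0 with several). The members and gene lists were chosen with earlier results of these data known, and all 46 measured members are named. From other lists the up to 4 genes with the smallest p in total liver and Cdkn1a could be named.

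Groups follow the sample titles. All 14 arrays entered 1 linear model of group means (limma 3.58.1, R 4.3.3). Degrees of freedom were 10 from the residuals and 5.11 from the prior. Tests were two-sided, and p-values were adjusted by Benjamini-Hochberg across the tested probe sets. The code was tested on simulated data. Alternatives were another moderation, the 2 groups alone, a spread per tissue, filters on dim probe sets, other scalings, a replicate block and leaving out each array. Residuals of arrays with the same replicate number had correlations from -0.126 to 0.015 in total liver, and of 0.346, -0.211 and 0.262 in hepatocytes, so the numbers were not taken as pairs. Motifs were searched with Python 3.11.15 in RefSeq promoter windows of GRCm38.p6. No batch is given in the sources used here.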

Additional observations from a re-analysis of the deposited data

Results flagged for a closer look

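Among 92 groups of 4 total liver arrays tested, 1 per member and diet, 7 held an array that stood far apart from the other 3 by Dixon's test. Chance flags about 1 in 20 such groups. On CDAA, replicate 4 was high for Mcm6 (9.865, the others 9.57 to 9.615) and low for Kif23 (7.174, the others 7.833 to 7.931). Replicate 2 on CDAA was high for Kif11 (7.876, the others 6.621 to 6.692), and replicate 1 on CDAA was low for Ect2 (6.833, the others 7.901 to 8.058). On CSAA, replicate 2 was high for Bub1 (4.285, the others 3.867 to 3.909), replicate 3 for Kif20a (5.014, the others 3.754 to 3.936) and replicate 1 for Nek2 (7.358, the others 6.729 to 6.814). Hepatocyte groups, with 3 arrays each, were too small for this test.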

How the results depend on the processing

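Under every alternative run, 0 members were called lower on CDAA in either tissue. Against 9 S phase and 23 mitosis calls in total liver, leaving out 1 array gave 7 to 10 and 20 to 22, joint quantile normalization gave 6 and 20, the 2 groups alone 11 and 26, and a spread per tissue 14 and 25. Against 10 and 24 in hepatocytes, leaving out 1 array gave 9 to 11 and 21 to 26, a spread per tissue 8 and 20, and the 2 groups alone 7 and 17. Without probe sets under background on every array, 10 mitosis members were left. They passed that filter through CDAA hepatocyte arrays alone, where members are high, so it favours members that rose and its values support nothing. There the mitosis calls were 9 in each tissue, and the medians were 1.46 (S phase) and 2.22 (mitosis) in total liver and 2.13 and 2.30 in hepatocytes. The S phase median was 0.98 in total liver after joint quantile normalization and 2.01 in hepatocytes after intron centring. Leaving out 1 array, S phase medians ran from 1.08 to 1.26 in total liver and from 1.48 to 1.71 in hepatocytes, and mitosis medians from 1.35 to 1.58 and from 1.44 to 1.89. Members not above background in CDAA hepatocytes were 12 with the 90th percentile and 45 with the 99th, against 27.

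Probe sets called in total liver were 2279, but 4613 with the 2 groups alone, 4604 with a spread per tissue and 1510 to 1911 without 1 array, lowest without replicate 1 on CDAA. In hepatocytes they were 4158, but 1883 with the 2 groups alone, 2529 with a spread per tissue and 3039 to 5811 without 1 array. For the difference between tissues they were 570, but 875 after intron centring and 396 to 2265 without 1 array, highest without replicate 1 of the CDAA hepatocytes. In that difference the members called with the lower effect in total liver were 1 of S phase and 1 of mitosis after intron centring, 1 of S phase after joint quantile normalization, and 0 to 2 of S phase and 0 to 3 of mitosis without 1 array, with 0 to 1 of mitosis called with the higher effect. Its medians ran from -0.61 to -0.33 for S phase and from -0.57 to -0.29 for mitosis. Centring on array medians shifted the median of all probe sets by -0.14 in total liver and -0.16 in hepatocytes, and intron centring by 0.30 in hepatocytes.

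Signs turned in total liver for uncalled members. Aurka was -0.056 after centring on array medians, -0.051 after joint quantile normalization and -0.098 without replicate 2 on CDAA. Cdc6 was -0.052 after centring on array medians and -0.171 without replicate 3 on CDAA. Tyms was -0.087 and -0.1 after these 2 scalings, -0.023 without replicate 3 on CDAA and -0.006 without replicate 3 on CSAA, and Cenpf was 0.026 without replicate 3 on CSAA. Without 1 array, Aurka ran from -0.098 to 0.27, Cdc6 from -0.171 to 0.321, Tyms from -0.023 to 0.091 and Cenpf from -0.368 to 0.026. The causes were not tested. With the replicate number as a block, calls were 10 of S phase and 22 of mitosis in total liver, 10 and 24 in hepatocytes and 0 for the difference between tissues. The numbers were not taken as pairs. Averaging several probe sets of 1 gene was not run, as each member had 1. Most members lay within the intensity range of the intron controls, which limits what their differences say about size.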
